A study of Mus musculus with 16 samples.

Results

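The 8 genes described here (Gas5, Snhg1, Snhg3, Snhg5, Snhg6, Snhg8, Snhg12 and Snhg15) are long non-coding RNA genes whose introns carry small nucleolar RNAs (snoRNAs). They were chosen by name out of 54193 genes, and the expected counts of all their transcripts in the deposited data were summed in each of the 16 RNA-seq libraries. All 8 passed the filter on low counts, with between 77.4 and 4090 expected counts per library.

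The libraries came from mouse brain microvascular endothelial cells (mBMEC) of 8 to 10 week old Cdh5(PAC)-CreERT2/Pdcd10 fl/fl mice on a C57BL/6J background, in which an endothelial promoter drives a Cre recombinase that 4-hydroxy-tamoxifen (4-OHT) activates. Every culture was grown from pooled brains, selected with puromycin and used at passage 2, and KO cells had received 4-OHT to delete Pdcd10 (Ccm3) while WT cells carried the same alleles without 4-OHT. The genotype and the exposure to 4-OHT therefore cannot be told apart. Cells were left without drug (WT and KO, 3 libraries each), given 10 µM propranolol for 24 h (WT+P, 2 libraries, and KO+P, 3) or given 100 nM rapamycin for 24 h (WT+R, 2 libraries, and KO+R, 3). Propranolol blocks β-adrenergic receptors and rapamycin inhibits mTORC1, a kinase complex that promotes protein synthesis.

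A snoRNA host gene is transcribed and spliced like a messenger RNA, and its snoRNAs are trimmed out of the excised introns. Box C/D snoRNAs guide the 2′-O-methylation of ribosomal RNA and box H/ACA snoRNAs guide its pseudouridylation or cleavage. The spliced exons that remain often hold only short reading frames, and several of these RNAs, Gas5 among them, are known to be removed by nonsense-mediated decay when ribosomes read them. Many host genes start with a run of pyrimidines of the kind that begins ribosomal protein mRNAs, whose translation depends on mTORC1.

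The annotation of GRCm39 placed 28 snoRNA loci inside the 8 genes, with 9 in Gas5, 8 in Snhg1, 4 in Snhg12, 2 each in Snhg3 and Snhg5, and 1 each in Snhg6, Snhg8 and Snhg15. A box C/D snoRNA from 4 of the hosts is shown to make plain what the introns hold. Capitals mark the C box (TGATGA) near the 5′ end and the D box (CTGA) near the 3′ end, the short motifs that the C/D proteins bind.
Snord47 of Gas5: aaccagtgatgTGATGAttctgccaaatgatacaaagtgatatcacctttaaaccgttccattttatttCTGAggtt
Snord50a of Snhg5: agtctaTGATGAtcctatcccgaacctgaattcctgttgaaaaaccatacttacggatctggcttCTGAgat
Snord87 of Snhg6: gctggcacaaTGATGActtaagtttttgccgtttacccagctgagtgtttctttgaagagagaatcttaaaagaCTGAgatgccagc
Snord99 of Snhg12: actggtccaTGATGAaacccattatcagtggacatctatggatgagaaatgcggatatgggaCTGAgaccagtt
In GRCm39 these lie at chr1:160865652-160865728 on the plus strand (Snord47), chr9:88403582-88403653 on the minus strand (Snord50a), chr1:10012688-10012774 on the minus strand (Snord87) and chr4:132038002-132038075 on the plus strand (Snord99). The mature snoRNAs carry no poly(A) tail and the libraries were selected for poly(A), so the counts below are read as those of the host transcripts. Carry-over of snoRNAs or introns was not tested.

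The starts of the host genes are shown because a pyrimidine start is the feature that ties such genes to mTORC1. Each line holds 10 bases before and 20 bases from the start in the RefSeq promoter table (build GRCm38.p6), found again by exact match in GRCm39, and capitals mark the unbroken run of C and T through the start base. Sequences were found for 7 of the 8 genes. Snhg6 had no entry.
Gas5 at the downstream start: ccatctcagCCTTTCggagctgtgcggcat
Gas5 at the upstream start: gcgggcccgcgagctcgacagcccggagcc
Snhg8: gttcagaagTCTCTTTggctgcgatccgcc
Snhg12: ttctcagTCCTTTCTCgcttcatccgcggt
Snhg1: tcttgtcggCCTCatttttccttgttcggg
Snhg5: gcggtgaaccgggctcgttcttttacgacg
Snhg3: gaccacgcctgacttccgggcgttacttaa
Snhg15: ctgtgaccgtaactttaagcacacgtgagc
In GRCm39 these windows lie at chr1:160862726-160862755 and chr1:160862161-160862190 on the plus strand for Gas5, chr3:123301966-123301995 on the minus strand for Snhg8, chr4:132035979-132036008 on the plus strand for Snhg12 and chr19:8700841-8700870 on the plus strand for Snhg1. Those of Snhg5 (chr9:88404931-88404960), Snhg3 (chr4:132080978-132081007) and Snhg15 (chr11:6478741-6478770) lie on the minus strand. A C at the start followed by at least 4 C or T, on the strand of the gene, was present in 2 of the 7 (28.6%), Gas5 and Snhg8, against 3.01% of the 27025 genes in the table. Within 10 bases of the start such a run was found in 5 of 7 members (71.4%), against 34.4% of all genes. The starts of the most abundant GENCODE transcripts, used as an alternative, gave 0 of 8 members against 3.81% of tested genes, and 4 of 8 within 10 bases (50%) against 32.6%, so the count rests on which start is taken. The letters TGATGNAA, the form of a C/EBP-ATF response element, were in 0 of the 7 promoters of 300 bases on either strand, against 4.51% of all promoters. CACGTG, an E-box that reads the same on both strands, was in 1 of 7 (Snhg15), against 8.09%.

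Depth was between 18830503 and 26203339 expected counts per library. Pdcd10, the targeted gene, stood at 7.83 to 16.7 CPM (counts scaled by the library total, with TMM normalization between libraries) in the KO, KO+P and KO+R libraries and at 27.7 to 60.8 CPM in the WT, WT+P and WT+R libraries other than the library labelled WT replicate 1, which at 11.5 CPM sat with the KO libraries. All 10 endothelial markers were expressed, with summed levels of 10200 to 13300 CPM in WT, 6450 to 9840 in WT+P, 9100 to 9770 in WT+R, 10800 to 11800 in KO, 6860 to 10200 in KO+P and 10200 to 11400 in KO+R. The 2 lowest sums belonged to the replicate 1 libraries of WT+P and KO+P, which also stood apart for the host genes. Of markers of other cells, 4 of 7 mural, 4 of 5 fibroblast, 1 of 4 astrocyte, 1 of 4 neuron, 0 of 5 microglia and 0 of 4 oligodendrocyte markers averaged above 1 CPM. The neuron markers summed to 1.75 to 28.5 CPM and were highest in the same 2 libraries (20.3 and 28.5), with Rbfox3, Snap25 and Syt1 near 0, and their part in the results was not tested. The mural markers summed to 39.2 to 178 CPM in WT, 174 to 320 in WT+P, 563 and 625 in WT+R, and 30.4 to 169 in KO, KO+P and KO+R. The fibroblast markers summed to 2.64 to 186 CPM over the 16 libraries. Whether these differences bear on the results was not tested. In bulk RNA, fewer cells of a type and less RNA per cell cannot be told apart. Libraries with the same replicate number deviated together, so ratios within a genotype and replicate number are also given.

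Per transcript length, Gas5 was the most abundant host, at 191 ± 41.1 TPM (transcript abundance scaled by length and library total) in WT (mean ± SD, n = 3). Snhg1 followed at 87.3 ± 32.6, Snhg3 at 71.5 ± 18.5, Snhg8 at 50.8 ± 3.64, Snhg6 at 44.3 ± 21.6, Snhg15 at 35.6 ± 2.62, Snhg12 at 27.1 ± 6.66 and Snhg5 at 10.4 ± 1.9 TPM. In this order the WT libraries of neighbouring genes overlapped, except that Gas5 lay above Snhg1 and Snhg12 above Snhg5 in every WT library. Over the 16 libraries the highest TPM was 14.5 times the lowest for Snhg12 and 2.87 times for Snhg3, the widest and the narrowest span among the 8.

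Under propranolol, 7 of the 8 host genes were higher than in untreated cells in the fit that averages both genotypes, and Snhg12 passed the test. All 7 had an unadjusted p-value under 0.05, against 12.4% of the 14838 genes tested being higher at that limit. The median log2 fold change of all 8 members was 0.98, against 0.00 over all genes. Only Snhg12 was called at an adjusted p-value under 0.05 with a fold change above 1.5, where 1.45% of all genes were called higher. With the replicate number as a block, 3 members (Gas5, Snhg5 and Snhg12) were called higher, where 2.95% of all genes were.

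Snhg12, which hosts Snora16a, Snora44, Snora61 and Snord99 (chr4:132035905-132038762, plus strand), stood at 5.2, 6.65 and 7.05 CPM in the WT libraries and at 55.6 and 11.1 CPM in WT+P replicates 1 and 2. In KO it stood at 6.74, 6.95 and 6.93 CPM, and in KO+P replicates 1, 2 and 3 at 75.9, 25.0 and 13.4 CPM. Every propranolol library was above every untreated library of its genotype, and replicate 1 was highest in both genotypes. The fitted rise was 5.41-fold (log2 fold change 2.44, SE 0.43, adjusted p = 0.0179, edgeR quasi-likelihood test with Benjamini-Hochberg adjustment), with a 95% interval of 2.79 to 10.5-fold. Within KO cells the log2 fold change was 2.47 (edgeR adjusted p = 0.204) and within WT cells 2.4 (edgeR adjusted p = 0.3).

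Among the box C/D hosts, Gas5 (growth arrest-specific 5, chr1:160861793-160866118, plus strand) is known as a transcript that accumulates when cells stop growing. It stood at 32.7, 27.8 and 34.3 CPM in WT, 107 and 27.3 in WT+P, 32.7, 26.8 and 29.9 in KO, and 170, 57.5 and 42.4 in KO+P. The KO+P libraries lay above all KO libraries, whereas WT+P replicate 2 lay below all WT libraries. The fitted change in the mean of both genotypes was 2.53-fold (95% interval 1.43 to 4.48, edgeR adjusted p = 0.0779, and 0.046 with the replicate block).

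Snhg5, host of Snord50a and Snord50b (chr9:88377321-88405615, minus strand), stood at 4.69, 6.24 and 4.18 CPM in WT, 20.3 and 5.52 in WT+P, 6.39, 6.41 and 5.64 in KO, and 27.1, 11.0 and 8.93 in KO+P. Its KO+P libraries were all above KO, and its WT+P replicate 2 fell inside the WT range. Its log2 fold change was 1.35 (SE 0.33, edgeR adjusted p = 0.0549, and 0.0473 with the replicate block).

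Snhg6, host of Snord87 (chr1:9926809-10014504, minus strand), stood at 8.7, 4.26 and 3.65 CPM in WT, 19.6 and 4.22 in WT+P, 8.37, 4.29 and 5.06 in KO, and 24.9, 7.63 and 5.89 in KO+P. Untreated replicate 1 was itself the highest of its group in both genotypes, and the groups overlapped in both. The log2 fold change was 1.11 (SE 0.46, edgeR adjusted p = 0.181). Snhg1, the host of Snord22 and 7 other snoRNA loci (chr19:8700319-8703812, plus strand), stood at 13.0, 20.6 and 23.4 CPM in WT, 45.8 and 17.3 in WT+P, 13.6, 18.9 and 17.8 in KO, and 50.3, 19.9 and 18.7 in KO+P. Untreated replicate 1 was the lowest of its group and treated replicate 1 the highest, and the WT groups overlapped, as did the KO groups. Its log2 fold change was 0.78 (SE 0.3, edgeR adjusted p = 0.155).

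Among the box H/ACA hosts, Snhg8, which carries Snora24 (chr3:123301192-123302578, minus strand), stood at 7.04, 5.45 and 5.45 CPM in WT, 14.2 and 4.61 in WT+P, 6.2, 5.31 and 6.0 in KO, and 20.8, 7.38 and 7.9 in KO+P. KO+P lay above KO in every library and WT+P replicate 2 below all WT libraries, with a log2 fold change of 0.85 (SE 0.33, edgeR adjusted p = 0.161). Snhg15, which carries Snora9 (chr11:6473829-6478870, minus strand), stood at 11.4, 11.2 and 11.6 CPM in WT, 25.5 and 9.03 in WT+P, 10.1, 9.6 and 10.9 in KO, and 23.6, 11.0 and 12.9 in KO+P. The same split was seen, with KO+P above KO, and the log2 fold change was 0.62 (SE 0.26, edgeR adjusted p = 0.187).

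Snhg3 carries Snora73a and Snora73b, which act in the cleavage of pre-ribosomal RNA (chr4:132075325-132080997, minus strand). It stood at 7.45, 5.38 and 6.81 CPM in WT, 6.29 and 4.38 in WT+P, 7.13, 4.74 and 4.62 in KO, and 6.95, 4.75 and 5.78 in KO+P. The groups overlapped in both genotypes, and its log2 fold change was -0.11 (SE 0.21, 95% interval -0.58 to 0.36, edgeR adjusted p = 0.813). All of its exonic bases (100%) overlap Rcc1 on the same strand or Gm17300 on the other, so its counts are uncertain.

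**Figure D1:**
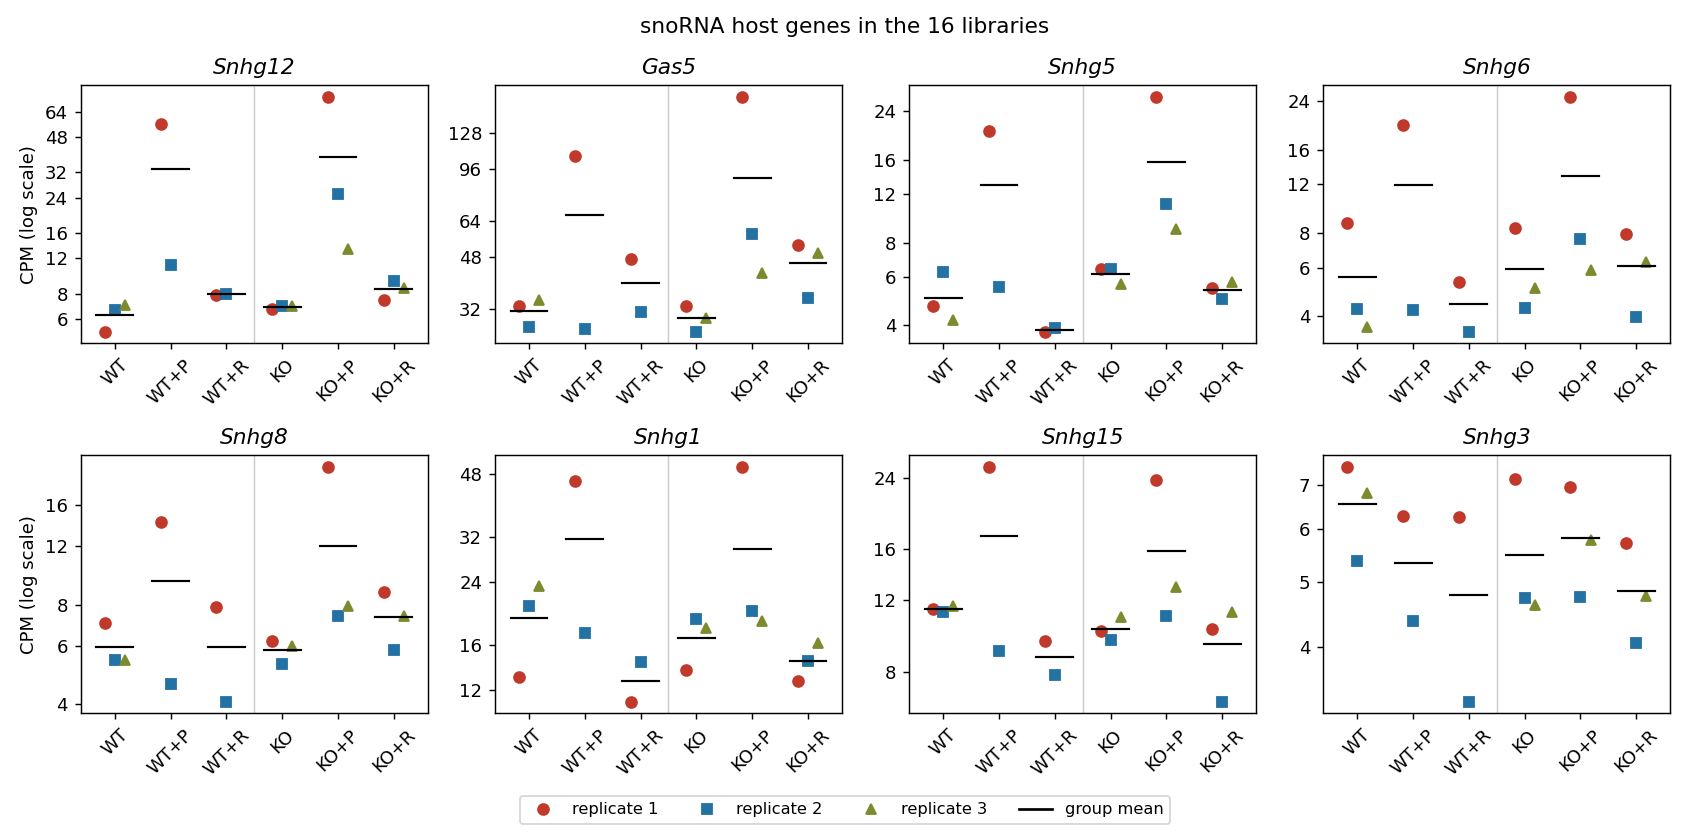
CPM on a log scale (y axis) of the 8 host genes in each library, by group (x axis), with points for replicates 1, 2 and 3 and a bar for the group mean. The replicate 1 libraries of WT+P and KO+P lie highest for every host except Snhg3, and Snhg12 reaches 55.6 and 75.9 CPM there.

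In the separate comparisons 0 of 8 members were called by edgeR, in KO+P against KO as well as in WT+P against WT, where 0% of all genes were called higher in each. At an unadjusted p-value under 0.05, 4 of 8 members were higher in KO+P (Gas5, Snhg5, Snhg8 and Snhg12), against 6.93% of all genes, and 2 of 8 in WT+P (Snhg5 and Snhg12), against 6.7%. DESeq2 called Snhg12 in each comparison, where it called 0.91% of all genes higher in KO+P and 0.741% in WT+P. In KO+P, 5 of 8 members had no overlap with KO and were higher (Gas5, Snhg5, Snhg8, Snhg12 and Snhg15), against 9.58% of all genes. In WT+P this held for 1 of 8, Snhg12, against 10.8%. The interaction of propranolol with genotype gave 0 called members by edgeR and by DESeq2, 0 at an unadjusted p-value under 0.05, and 0% of all genes called by edgeR. No share of all genes is given here for its DESeq2 and unadjusted counts, so these do not show that the genotypes responded alike.

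Set against the untreated library of the same genotype and replicate number, the change was uneven. In KO replicate 1, 7 of 8 members were over 2-fold higher, with a median ratio of 3.54 and a highest ratio of 11.3 for Snhg12, where 7.62% of all genes were over 2-fold higher. In WT replicate 1 it was again 7 of 8, with a median of 2.76 and a ratio of 10.7 for Snhg12, against 9.11% of all genes. Snhg3 was the exception in both, at 0.975 and 0.844. In the WT pair Pdcd10 stood at 11.5 CPM in the untreated and 60.8 CPM in the treated library, so the pair may not share a Ccm3 state. Whether this bears on the ratios was not tested.

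In KO replicate 2, Snhg12 and Gas5 were over 2-fold higher (3.6 and 2.15), against 4.8% of all genes, and the median ratio was 1.55. In KO replicate 3, 0 of 8 members passed 2-fold, against 3.02% of all genes, and the median was 1.29. In WT replicate 2, 0 of 8 passed 2-fold, against 2.79%, and only Snhg12 was above its untreated library, at 1.67. Snhg12 was above its untreated library by at least 1.67-fold in all 5 pairs of libraries, 3 in KO and 2 in WT, of which the WT pairs share their numbers with KO pairs.

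**Figure D2:**
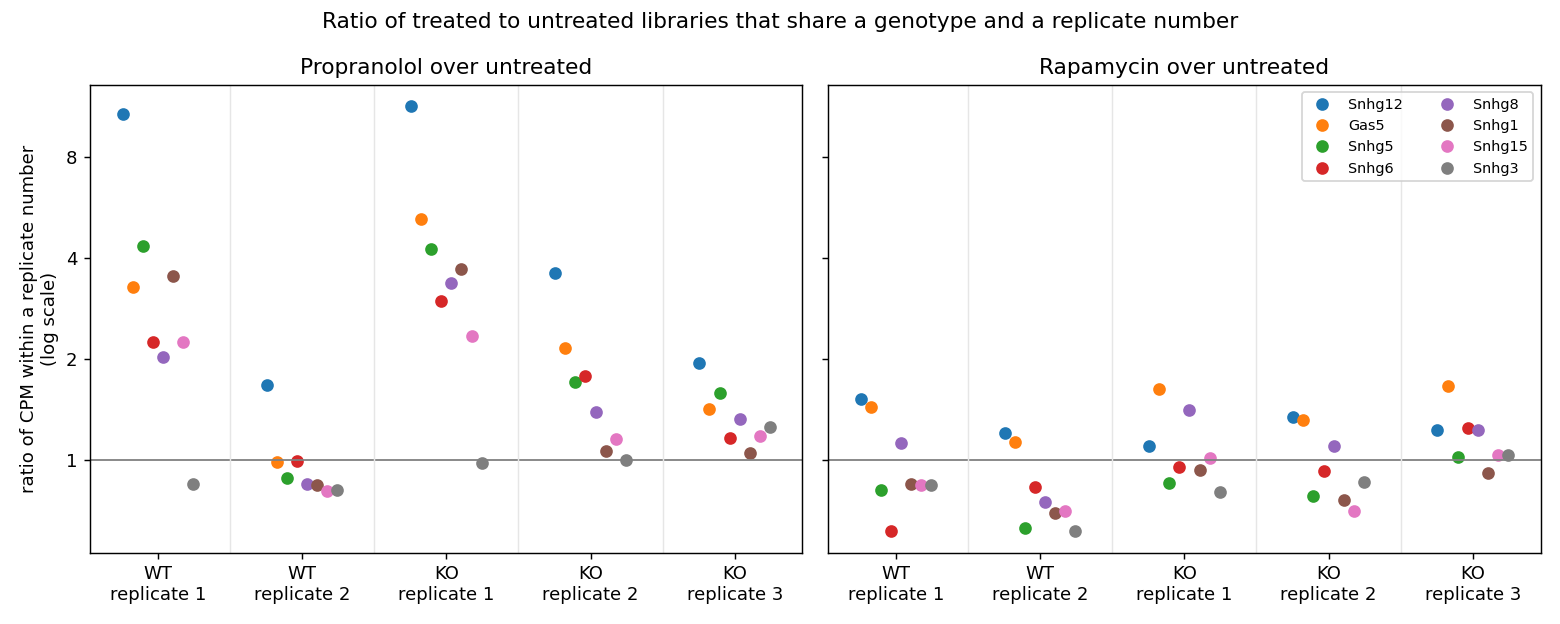
Ratio of CPM in the treated to the untreated library of the same genotype and replicate number (y axis, log scale) for propranolol (left) and rapamycin (right), with a point for each host gene. Under propranolol 7 of 8 hosts pass 2-fold in replicate 1 of both genotypes, and under rapamycin all ratios lie between 0.612 and 1.66.

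The 2 propranolol libraries of replicate 1 were then left out together, a step chosen after seeing the data. No member (0 of 8) was called by edgeR in the mean of both genotypes, and 2 (Snhg5 and Snhg12) had an unadjusted p-value under 0.05. The log2 fold change of Snhg12 went from 2.44 to 1.15 (SE 0.19, edgeR adjusted p = 0.0613), while that of Snhg5 became 0.41 and that of Gas5 0.27. In KO cells alone the values without these libraries were 1.49 for Snhg12, 0.75 for Gas5 and 0.7 for Snhg5. In these 2 libraries the endothelial marker sum was also the lowest of the series (6450 and 6860 CPM), and its part in the result was not tested. Leaving out single libraries, the call of Snhg12 was lost without WT replicate 1 (edgeR adjusted p = 0.0666), WT replicate 3 (0.0595), WT+P replicate 1 (0.157), KO replicate 1 (0.0652), KO replicate 2 (0.0524) or KO replicate 3 (0.0606). Without KO+P replicate 3, 3 members were called (Gas5, Snhg5 and Snhg12). The share of all genes called in that refit is not given here, so this count does not single out the host genes.

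Transcripts that still hold a snoRNA in an exon made up a smaller share of the host counts under propranolol in some of the genes. Among the transcripts in the deposited data, 6 of the 8 genes had some that hold a whole snoRNA, and Snhg3 and Snhg6 had none. In the full annotation, exons of Snhg3 and Snhg6 do overlap Snora73a and Snord87. The snoRNA-holding transcripts are annotated as retained introns in Gas5, Snhg5, Snhg8 and most of Snhg1 and as plain lncRNA transcripts in Snhg12 and Snhg15. The share fell in Snhg12, Snhg15 and Gas5 beyond the spread between libraries. For Snhg12 it was 25.1, 26.2 and 27.5% in WT, 3.29 and 17.5% in WT+P, 29.2, 24.2 and 36.1% in KO, and 2.98, 9.52 and 13.9% in KO+P. For Gas5 it was 18.3, 28.4 and 21.2% in WT, 5.62 and 12.4% in WT+P, 22.3, 29.9 and 27.2% in KO, and 4.87, 11.1 and 16.8% in KO+P. For Snhg15 it was 37.7, 35.8 and 40.3% in WT, 21.1 and 32.6% in WT+P, 45.9, 36.2 and 35.8% in KO, and 16.6, 19.4 and 26.4% in KO+P. In these 3 genes every propranolol library lay below every untreated library of its genotype, including the replicates whose host totals had changed little.

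The mean share fell by 18.5 percentage points in Snhg12, by 14.8 in Snhg15 and by 14.6 in Gas5, each with p = 0.005 in a two-sided exact permutation test within genotype. That is the smallest p-value these 200 arrangements can give, and it was 0.03 after Benjamini-Hochberg adjustment over the 18 permutation tests of the family. The test treated libraries as independent, although those with the same replicate number deviated together in both genotypes. Its p-values therefore do not account for the pairing and may overstate the evidence. In the other 3 genes the difference was -12.9 points for Snhg5 (exact permutation test, adjusted p = 0.158), -8.64 for Snhg1 (adjusted p = 0.054) and -5.32 for Snhg8 (adjusted p = 0.0643). Their WT+P and WT libraries overlapped, and their KO+P and KO libraries did not. Snhg5 and Snhg1 were also lower in all 5 pairs of the same genotype and number, by 4.8 to 29.9 and 5.74 to 18.7 points, as were Snhg12, Snhg15 and Gas5, and Snhg8 was lower in 4 of 5. Without the replicate 1 propranolol libraries all 6 differences were still negative (Snhg12 -13.4, Gas5 -11.4 and Snhg15 -10.9 points). With fewer arrangements the smallest p-value of the permutation test was then 0.025, which for 3 genes gives an adjusted value of 0.15, so that 0 members passed there says nothing about stability.

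The levels of the transcript classes moved apart. Snhg12 transcripts without a snoRNA stood at 4.64 ± 0.654 CPM in WT and 31.5 ± 31.5 in WT+P, and at 4.82 ± 0.422 in KO and 35.9 ± 33.1 in KO+P (mean ± SD, n = 3 except 2 in WT+P). Snhg12 transcripts that hold a snoRNA stood at 1.66 ± 0.324, 1.89 ± 0.0832, 2.05 ± 0.42 and 2.17 ± 0.267 CPM in the same groups. For Gas5 the class without a snoRNA stood at 24.6 ± 4.0, 62.4 ± 54.4, 22 ± 3.31 and 82.8 ± 69.0 CPM and the class with one at 7.05 ± 0.972, 4.69 ± 1.85, 7.81 ± 0.451 and 7.25 ± 0.974. For Snhg15 the class without a snoRNA stood at 7.07 ± 0.131, 13.1 ± 9.94, 6.2 ± 0.765 and 12.7 ± 6.06 CPM, and the class with one at 4.33 ± 0.336, 4.16 ± 1.72, 4.01 ± 0.585 and 3.15 ± 0.901. In each of the 3 genes the class without a snoRNA had the higher mean under propranolol, but in WT+P this rested on replicate 1 for Gas5 and Snhg15. In WT+P replicate 2 the class without a snoRNA stood at 24.0 CPM for Gas5, inside the WT range of 19.9 to 27.0, and at 6.09 for Snhg15, below all WT libraries (6.93 to 7.19). The class with one stood there at 3.38 CPM for Gas5 and 2.94 for Snhg15, below all WT libraries (6.00 to 7.91 and 4.02 to 4.68). In Snhg12 the class without a snoRNA stood at 9.17 CPM in that library, above all WT libraries. Salmon divides reads between overlapping transcripts, so each class level is an estimate.

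**Figure D3:**
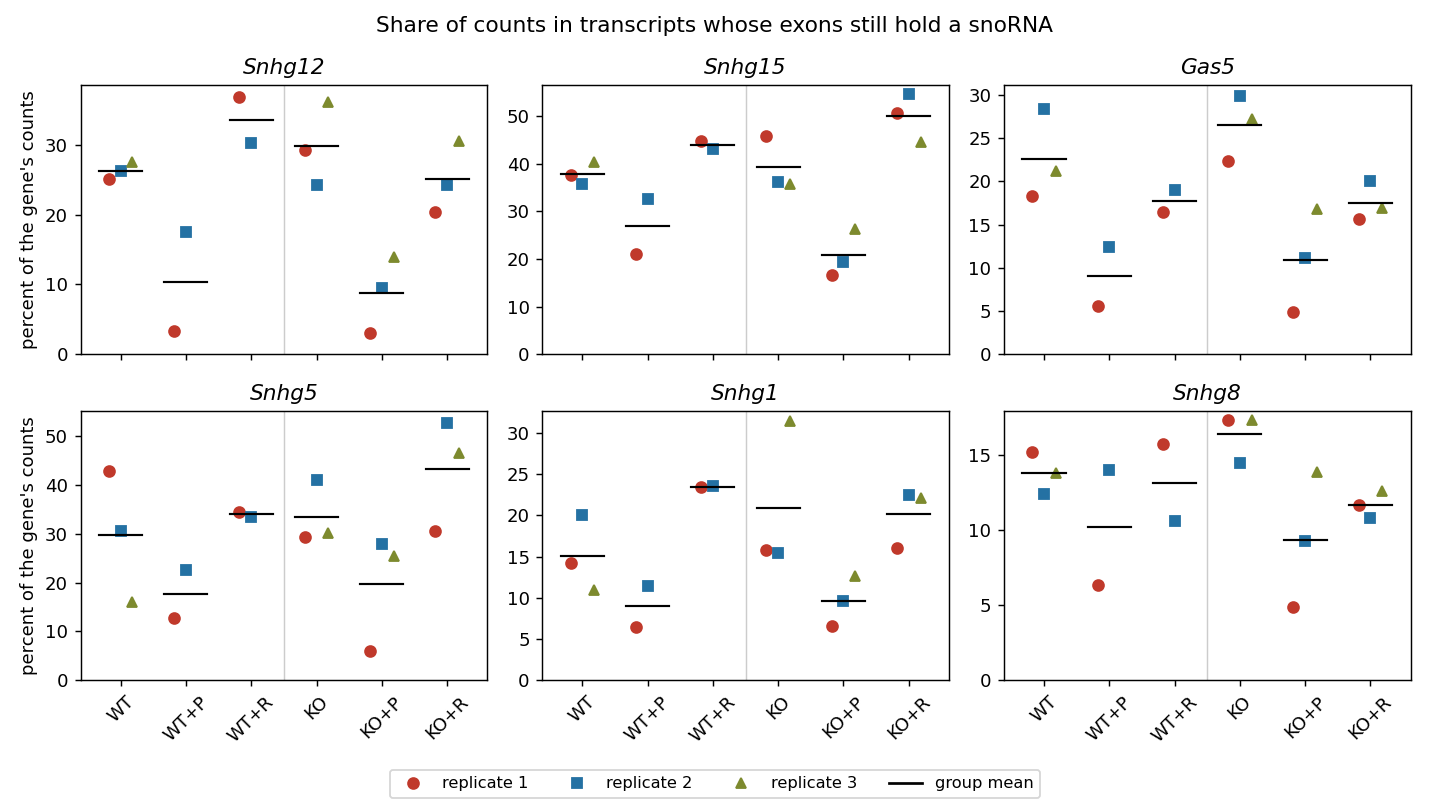
Percent of the expected counts of each host gene that lie in transcripts whose exons hold a snoRNA (y axis), by group (x axis), with points for replicates and bars for group means. In Snhg12, Snhg15 and Gas5 all propranolol libraries lie below the untreated libraries of the same genotype, down to 2.98% for Snhg12 in KO+P replicate 1.

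Rapamycin moved none of the 8 host genes past the test in either genotype. In KO+R against KO, 0 of 8 members were called and 0 had an unadjusted p-value under 0.05 in edgeR, where 1.51% of all genes were called and 12.5% passed the unadjusted limit. In WT+R against WT the counts were again 0 and 0, with 1.4% and 12.6% of all genes. In the mean of both genotypes they were 0 and 0, with 5.29% and 22%. With only 8 members, 0 calls lie near those shares of called genes and do not set the hosts apart. DESeq2 also called 0 members in each of the 3, and its shares of all genes are not given here. The median log2 fold change of the members in the mean of both genotypes was -0.2, from -0.4 for Snhg1 to 0.47 for Gas5. KO+R against KO and KO+P against KO share the KO libraries, and the WT comparisons share the WT libraries.

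Gas5 stood at 47.3 and 31.3 CPM in WT+R and at 53.1, 34.9 and 49.7 CPM in KO+R, and Snhg12 at 7.92 and 7.99 CPM in WT+R and 7.41, 9.31 and 8.55 CPM in KO+R. Both genes lay above every untreated KO library in KO+R, and Snhg12 above every WT library in WT+R. Within replicate numbers Gas5 was 1.13 to 1.66 times and Snhg12 1.1 to 1.52 times its untreated library, both above 1 in all 5 pairs, and Snhg1 was 0.695 to 0.933 times, below 1 in all 5. The 95% intervals of the mean log2 fold change were -0.35 to 1.29 for Gas5 and -0.64 to 1.28 for Snhg12, and the log2 fold change of 2.44 fitted for Snhg12 under propranolol lay outside the latter. Over the members, 2 of 8 were higher without overlap in KO+R (Gas5 and Snhg12), against 10.9% of all genes. In WT+R, 1 of 8 was higher without overlap (Snhg12), against 14%, and 2 of 8 were lower (Snhg5 and Snhg15), against 14.7%. The snoRNA-holding share of Snhg15 differed from untreated cells by 8.42 points and that of Gas5 by -6.93 points under rapamycin (exact permutation test, adjusted p = 0.054 and 0.0643), and 0 of 6 members passed.

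Cells given rapamycin were also set against cells given propranolol. All 8 members were lower in KO+R than in KO+P, with a median log2 fold change of -1.01, but 0 were called by edgeR, where 2.51% of all genes were called lower. At an unadjusted p-value under 0.05, 3 were lower (Snhg1, Snhg5 and Snhg12), against 11.8%. With the replicate block Snhg12 (log2 fold change -1.95, edgeR adjusted p = 0.0389) and Snhg5 (-1.4, edgeR adjusted p = 0.0384) were called lower, where 5.62% of all genes were, and DESeq2 called the same 2 genes, with 4.29% of all genes lower. In WT+R against WT+P 0 members were called by edgeR, where 0.815% of all genes were called lower. In that comparison 4 (Snhg1, Snhg5, Snhg12 and Snhg15) had an unadjusted p-value under 0.05, against 8.76%, and DESeq2 called Snhg5 and Snhg12, with 2.62% of all genes lower. Snhg1, Snhg5 and Snhg12 were lower without overlap in KO+R than in KO+P, against 13.9% of all genes. The same 3 were so in WT+R against WT+P, against 19.4%. These comparisons share their treated libraries with the ones above.

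Loss of Ccm3 moved none of the 8 host genes past the test. In KO against WT 0 of 8 members were called and 0 had an unadjusted p-value under 0.05 in edgeR. Over all genes 0.00674% were called and 6.07% passed the unadjusted limit. With so few genes called, 0 of 8 lies near that share and does not show that the hosts were unchanged. DESeq2 also called 0 members, and its share of all genes is not given here. The log2 fold changes ran from -0.25 for Snhg3 to 0.29 for Snhg5 around a median of -0.06. Within replicate numbers 3 of 8 members were higher in KO in each of the 3 pairs, with median ratios of 0.98, 0.968 and 0.96. Snhg15 was the member whose groups did not overlap, with WT at 11.2 to 11.6 CPM and KO at 9.6 to 10.9 CPM. Over all 14838 genes, 964 (6.5%) were lower and 992 higher without overlap, and 0 members were higher. Taken over both directions, 1 of 8 members lies near the share of all genes. Snhg12 was close to equal, at 6.3 ± 0.975 CPM in WT and 6.87 ± 0.114 in KO (mean ± SD, n = 3), with a 95% interval of -1.15 to 1.39 for the log2 fold change.

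Under propranolol, KO+P against WT+P gave 0 called members by edgeR and by DESeq2, with 0% of all genes called by edgeR, and 0 members against 6.19% of all genes at an unadjusted p-value under 0.05. Within replicate numbers KO+P was above WT+P for 7 of 8 members in replicate 1 (median ratio 1.31) and 8 of 8 in replicate 2 (median 1.71, with 2.25 for Snhg12 and 2.1 for Gas5), where the medians over all genes were 0.989 and 0.981. Under rapamycin, KO+R against WT+R gave 0 called members by both tools, 0% of all genes by edgeR, and 0 members against 5.72% at the unadjusted limit, with 6 of 8 members higher in each of the 2 shared numbers (medians 1.12 and 1.15). The interaction of rapamycin with genotype gave 0 members by both tools, 0 at an unadjusted p-value under 0.05 and 0% of all genes by edgeR. For the DESeq2 counts and the unadjusted count of the interaction no share of all genes is given here. They describe the members alone and do not show that the hosts were unchanged. Leaving out the library labelled WT replicate 1, with Pdcd10 at the KO level, also gave 0 members in all of these comparisons. So few genes were called in them at all that an unchanged 0 cannot show whether that library mattered.

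Genes that work with the snoRNAs were read from lists that share their function. Of 11 tested other non-coding snoRNA hosts 0 were called by edgeR under propranolol in the mean of both genotypes, where 1.45% of all genes were called higher. Their median log2 fold change was 0.54. Epb41l4aos (0.97, edgeR adjusted p = 0.07, and 0.0471 with the replicate block) was called with the block, where 2.95% of all genes were called higher. Under rapamycin Epb41l4aos rose (0.9, edgeR adjusted p = 0.0489, and 0.0223 with the block), the 1 call in that list, where 2.24% of all genes were called higher. Snhg16 was the other host with the largest value, at 1.26 (SE 0.33, edgeR adjusted p = 0.0694). It stood at 5.29, 6.13 and 6.44 CPM in WT, 21.9 and 5.95 in WT+P, 4.14, 5.77 and 5.46 in KO, and 21.0, 9.46 and 7.38 in KO+P, again highest in replicate 1. Of 20 protein-coding hosts outside the ribosome 0 were called under propranolol (median 0.14), against the same 1.45% of all genes. Hspa9, a mitochondrial chaperone, had the largest value at 1.15 (edgeR adjusted p = 0.0506, and 0.0434 with the replicate block).

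Among the proteins that bind and assemble snoRNAs none passed the test. Of the 4 box C/D proteins, the 4 box H/ACA proteins and the 10 assembly factors, 0 were called in either direction by edgeR under either drug. Over all genes 1.45% were called higher under propranolol and 5.29% in either direction under rapamycin. In lists this short, 0 calls lie near those shares. Their median log2 fold changes under propranolol were 0.02, -0.01 and 0.11. The 10 factors of nonsense-mediated decay also gave 0 calls under either drug, again near those shares, with a median of 0.00 under propranolol.

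Among 8 genes known to be targets of nonsense-mediated decay, 2 rose under propranolol, where 1.45% of all genes were called higher, and the median log2 fold change was 0.85. These were Atf4, a transcription factor of the integrated stress response (1.52, SE 0.27, edgeR adjusted p = 0.0183), and Ddit3, the transcription factor CHOP (2.22, SE 0.41, edgeR adjusted p = 0.0208). Ddit3 stood at 25.4, 23.7 and 25.0 CPM in WT, 186 and 35.2 in WT+P, 20.2, 24.2 and 21.5 in KO, and 202, 75.6 and 41.9 in KO+P. As for Snhg12, every propranolol library was above the untreated ones of its genotype and replicate 1 was highest. Of the 8 genes in this list 7 were higher under propranolol, from 0.2 for Nat9 to 2.22 for Ddit3, and Upp1 was lower at -0.7. Why genes of this list rose was not tested.

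Genes known for pyrimidine starts were also read under rapamycin. Of 15 translation genes of that kind outside the ribosome, 5 rose, where 2.24% of all genes were called higher. The median log2 fold change was 0.51, and the genes that rose included Eef2, the elongation factor that moves the ribosome along (0.84, SE 0.1, edgeR adjusted p = 0.000335), and Eif4b, an initiation factor (0.7, SE 0.08, edgeR adjusted p = 0.000307). Of 79 cytosolic ribosomal protein genes 8 rose and 78 were higher, with a median of 0.46. The host genes had a median of -0.2 and 0 calls there, and under propranolol the order was the other way, with medians of 0.98 for the hosts, 0.04 for the translation genes and 0.11 for the ribosomal proteins. A difference between the lists was not tested. The RefSeq starts gave a pyrimidine start for 24.1% of the 58 ribosomal protein genes with a sequence, and for 33.3% of 9 of the translation genes.

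**Figure D4:**
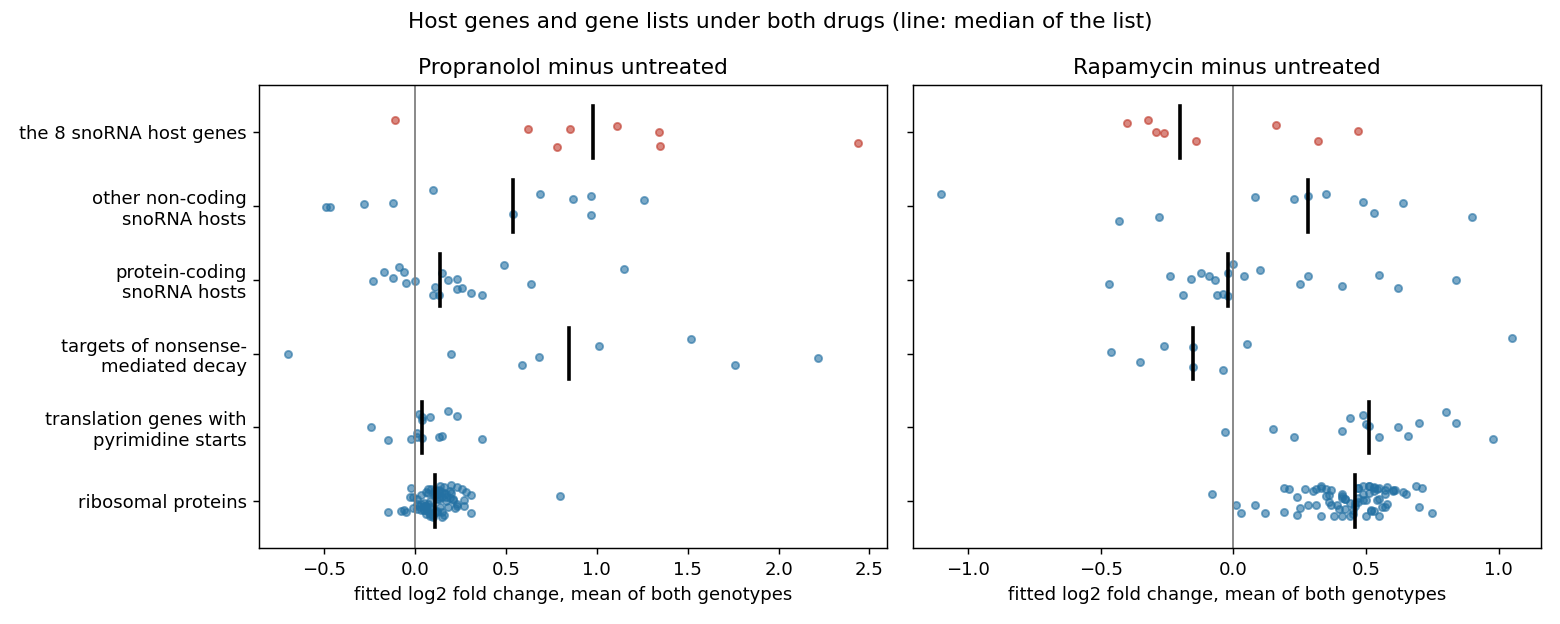
Fitted log2 fold change (x axis) of single genes in the 8 host genes and 5 related lists (rows), in the mean of both genotypes, for propranolol (left) and rapamycin (right), with a vertical line at each list's median. The hosts have a median of 0.98 under propranolol and -0.2 under rapamycin, and the ribosomal proteins 0.11 and 0.46.

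Several hosts share a start region with a gene on the other strand. Snhg1 starts 69 bases from Slc3a2, the heavy chain of amino acid transporters, which stood at 154, 151 and 255 CPM in WT, 1030 and 217 in WT+P, 144, 118 and 185 in KO, and 1160, 496 and 250 in KO+P. Slc3a2 rose under propranolol (log2 fold change 1.92, SE 0.41, edgeR adjusted p = 0.0405), again most in replicate 1. The libraries carry no strand and 39.1% of the exonic bases of Snhg1 overlap another gene or its own snoRNAs, Slc3a2 among them, so reads of Snhg1 and Slc3a2 cannot be fully told apart. Gas5 starts 25 bases from Zbtb37, a zinc finger gene, whose log2 fold change was -0.08. Snhg5 starts 73 bases from Gm67903 and Snhg15 starts 4 bases from Gm73094, both non-coding.

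Across the 16 libraries, which share their depth and culture structure, 7 hosts followed the mean of the other members with a Pearson correlation of 0.79 to 0.93 in log2 CPM, and Snhg3 with 0.43. After the mean of each replicate number was removed, the 7 stood at 0.85 to 0.96 and Snhg3 at 0.11. The genes outside the list whose log2 CPM was most like the mean of the 8 were Josd1 and Preb (each 0.972), Alg12 (0.967), Lsg1 (0.962) and Sec61a1 (0.956). Within replicate numbers they were Phf10 (0.975), the host gene Snhg16 (0.97), Rabggtb (0.966), Riok3 (0.966) and Stx18 (0.965). By rank (Spearman) the values were lower, at 0.818, 0.879, 0.809, 0.809 and 0.685 for the first 5 genes in that order. For the second 5 they were 0.918, 0.941, 0.935, 0.871 and 0.924. Sec61a1 stood at 544 and 511 CPM in WT+P and KO+P replicate 1 and at 173 to 275 CPM elsewhere, so these 2 libraries weigh heavily in its Pearson value. These values describe likeness over 16 libraries and carry no test.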

How the data were processed

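Per the labels, poly(A) RNA of mBMEC was sequenced in unstranded libraries. For every transcript in each library the authors deposited Salmon's output, that is the effective length, TPM and expected count. The submitters' processing notes name Salmon 1.5.2, Trim Galore 0.6.7, STAR, HTSeq 0.13.5, DESeq2 1.34.0, R 4.2.2 and the build GRCm39, without roles. These deposited expected counts carry no scaling between libraries. They were summed over the GENCODE genes of GRCm39 and rounded. Of 140789 transcripts 99.12% were named, and the others held 0.39 to 0.57% of counts. No value column lacked a sample (0 columns).

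Groups and replicate numbers came from the labels, which call the libraries biological replicates. edgeR 4.0.16 (R 4.3.3) was fitted to all 16 libraries with a mean per group, TMM normalization and filterByExpr, which left 14838 of 27228 genes with any count. A call needed a change of over 1.5-fold and, over all tested genes, a p-value under 0.05 after Benjamini-Hochberg adjustment. For interactions only the latter was needed. CPM values are normalized with TMM. The biological coefficient of variation was 32.3% (19% with the block), so precision was limited by how cultures varied rather than by depth. Same-numbered libraries correlated in their deviations from the group means at 0.19 to 0.69 in the pairs of compared groups. Over all 36 same-numbered pairs the range was 0.03 to 0.69 (median 0.52), and over 70 pairs of different numbers -0.69 to 0.4 (median -0.23), so the numbers paired the libraries. This pairing comes from the values, not from the labels. The blocked fit adds the replicate number.

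The share of counts in transcripts whose exons hold an annotated snoRNA on the same strand was compared by two-sided exact permutation tests within genotype or drug. Alternatives were DESeq2 1.42.0, the block, other normalization, filters, transcripts and libraries. The scripts were tested on simulated data. The genes named were the 8 hosts, from each list up to 4 called genes with the smallest p-values (or 2 where none was called), genes on the other strand starting within 1000 bases of a host's start, the 5 genes most like the hosts by each measure, and Pdcd10. The members and lists were chosen with earlier results of these data known.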

Additional observations from a re-analysis of the deposited data

How the results depend on the processing

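The members called under propranolol in the mean of both genotypes, 1 as reported, were 3 with DESeq2, 3 with the replicate block in edgeR, 5 with the block in DESeq2, 3 with no filter on low counts, 2 with an effective length offset, 2 without retained-intron transcripts, 0 with the compared groups fitted alone, 0 without both propranolol libraries of replicate 1, and 0 to 7 when single libraries were left out. In KO+P against KO, 0 as reported, they were 1 with DESeq2, 4 with the block in DESeq2, 1 with no filter and 0 to 1 when single libraries were left out (1 without KO+P replicate 3). In WT+P against WT, 0 as reported, they were 1 with DESeq2, 1 with the block in DESeq2 and 0 to 2 with single libraries left out (2 without WT+P replicate 2). In KO+R against KO+P, 0 as reported, they were 2 with DESeq2, 2 with the replicate block in edgeR, 2 with the block in DESeq2, 2 with no filter, 1 without retained-intron transcripts, 2 without both propranolol libraries of replicate 1, and 0 to 2 with single libraries left out (2 without WT+P replicate 1 or 2 or KO+P replicate 3). In WT+R against WT+P, 0 as reported, they were 2 with DESeq2, 2 with the block in DESeq2 and 0 to 3 with single libraries left out (3 without WT+P replicate 2). The replicate block in edgeR changed no other count of members. The causes of these changes were not tested, beyond fewer samples in the fits that leave libraries out. Some of these fits left only 1 library in WT+P or WT+R. Shares of all genes called are not given here for these alternatives, so the counts describe the members alone and do not single them out.

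Without both propranolol libraries of replicate 1 the log2 fold changes of Snhg6 (-0.1) and Snhg15 (-0.05) in the mean turned negative, as did those of Snhg3 in KO+P against KO (-0.06, and -0.04 with the effective length offset) and, in WT+P against WT, of Gas5 (-0.22), Snhg1 (-0.15), Snhg6 (-0.39), Snhg8 (-0.38) and Snhg15 (-0.34). With single libraries left out, values ran from -0.25 to 0.01 for Snhg3 in the mean and from -0.06 to 0.32 in KO+P against KO. In WT+P against WT they ran from -0.21 to 1.76 for Gas5, -0.14 to 1.27 for Snhg1, -0.39 to 1.82 for Snhg6, -0.37 to 1.25 for Snhg8 and -0.34 to 1.17 for Snhg15.

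For the snoRNA-holding share under propranolol, 3 members passed as reported and 0 with retained-intron transcripts, where Snhg12 and Snhg15 have none and could not be tested and the differences were -15.4 points for Gas5 and -27.8 for Snhg5 (permutation test, adjusted p = 0.075 each). It was 0 without both propranolol libraries of replicate 1 and 0 to 3 with single libraries left out. Leaving out a library of the compared groups raised the smallest p-value the permutations can give from 0.005 to between 0.01 and 0.0167, which for 3 genes gives an adjusted value of 0.06 to 0.1, so these counts of 0 do not bear on stability. Under rapamycin 0 to 1 passed with single libraries left out (1 without KO replicate 1). The pyrimidine start, in 2 members as reported, was found in 5 within 10 bases, in 0 at GENCODE starts and in 4 within 10 bases of those.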
